A study of Mus musculus with 48 samples.

Results

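The transcription factor p53 and 30 of its known target and partner genes were followed in primary mouse astrocytes and lung fibroblasts, through stimulation of a G protein-coupled receptor and through delivery of Cre recombinase by a virus. The genes were taken from a list of 32 names. Tp53i11 and Trp53i11 are spellings of 1 gene, found in the tables as Trp53i11, which left 31 genes among 50763 in the tables, and all 31 passed the filter on low counts in every line. p53 is held low in unstressed cells by Mdm2, a ubiquitin ligase that is itself a p53 target. DNA damage, viral infection and other stresses stabilise p53, which then binds near its targets and raises genes for cell cycle arrest (Cdkn1a, the kinase inhibitor p21), cell death (Bax, Bbc3, Pmaip1), DNA repair and control of metabolism. Many of these genes also answer to other signals, among them cAMP, growth factors and nutrient stress.

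RNA was sequenced from 48 libraries, 3 for each of 16 groups. All cells came from mice heterozygous for a BERKY3 allele, a Cre-dependent biosensor of an active G protein alpha subunit. The Gas line (Gαs*-BERKY3) gave astrocytes, and the Gai, Gaq and Ga13 lines (Gαi*-, Gαq*- and Gα13*-BERKY3) gave lung fibroblasts. About 18 h after seeding, in medium with polybrene, each culture received an AAV2/1 virus with a CMV promoter that either carried Cre or was empty, at a dilution of 1:500 for astrocytes and 1:1000 for fibroblasts. For the last 90 min cells had fresh medium without agonist (unstimulated) or with it (stimulated): 1 µM isoproterenol, a beta-adrenergic agonist, for astrocytes and 100 µM TRAP-6, a peptide agonist of the thrombin receptor PAR1, for fibroblasts. Cre and empty virus groups differ in the recombinase, in the biosensor that it turns on and in the vector, and these cannot be told apart. Cell type and agonist also change together between the Gas line and the other lines. The labels do not say whether the 3 libraries of a group came from separate animals or cultures, so p-values measure only the spread between these libraries, which may be technical.

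Depth ran from 15.6 M to 42.6 M counts per library. Biosensor counts matched the virus labels, with group means of 0.0401 to 0.725 CPM (counts scaled to 1000000 per library) with empty virus and 20.2 to 133 CPM with Cre. Astrocyte markers summed to 8860 to 9730 CPM in the Gas libraries, with all 9 over 1 CPM. Beside them 9 fibroblast markers summed to 5030 to 6310 CPM, of which Fn1 alone averaged 3690 CPM. Sums were 678 to 855 CPM for 7 oligodendrocyte lineage markers and 358 to 413 CPM for 5 ependymal markers. The 10 microglia and macrophage markers summed to 235 to 267 CPM. Neuronal markers (7) summed to 141 to 176 CPM, and smooth muscle and pericyte markers (6) to 139 to 170 CPM. In the fibroblast lines the 9 fibroblast markers summed to 40900 to 64200 CPM and 5 mesothelial markers to 561 to 931 CPM. Replicate 1 of the Gai line stood apart in all 4 of its groups: its 4 libraries lay outside the range of the other 8 for 11.8% of genes, against at most 1.67% for any other replicate number in any line. Among the p53 genes 10 did so (Mdm2, Cdkn1a, Ccng1, Btg2, Plk2, Plk3, Zmat3, Aen, Trp53inp1 and Sesn2). Btg2, for example, was at 472 to 542 CPM in the replicate 1 libraries and 720 to 763 CPM in the others. Gai results are therefore given with and without these 4 libraries.

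The first 2 promoters below belong to the genes with the largest response to isoproterenol, Btg2 and Plk2. Theirs were the only windows among these genes with the palindromic cAMP response element TGACGTCA, shown in capitals. The other 2, of Ccng1 and Ei24, belong to genes that rose with Cre in the Gaq line, and the capitals mark a match to the p53 decamer (searched by name on both strands). Phlda3, Fas and Eda2r also rose there and had windows without a match. Each window holds 250 bases before and 50 after a transcription start, from RefSeq on GRCm38.p6.
Btg2 (chr1:134079106-134079405, minus strand): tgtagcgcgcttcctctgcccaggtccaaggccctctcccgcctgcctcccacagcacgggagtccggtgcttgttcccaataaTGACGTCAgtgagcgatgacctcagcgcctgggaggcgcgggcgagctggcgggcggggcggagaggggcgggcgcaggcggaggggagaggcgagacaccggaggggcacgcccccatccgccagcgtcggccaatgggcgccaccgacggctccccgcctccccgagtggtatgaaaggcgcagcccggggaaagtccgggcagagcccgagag
Plk2 (chr13:110394794-110395093, plus strand): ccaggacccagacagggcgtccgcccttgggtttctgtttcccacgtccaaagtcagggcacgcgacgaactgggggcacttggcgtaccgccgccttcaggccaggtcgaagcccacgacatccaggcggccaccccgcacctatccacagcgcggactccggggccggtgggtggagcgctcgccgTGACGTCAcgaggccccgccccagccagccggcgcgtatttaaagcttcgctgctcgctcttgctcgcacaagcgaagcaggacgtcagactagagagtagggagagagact
Ccng1 (chr11:40755237-40755536, minus strand): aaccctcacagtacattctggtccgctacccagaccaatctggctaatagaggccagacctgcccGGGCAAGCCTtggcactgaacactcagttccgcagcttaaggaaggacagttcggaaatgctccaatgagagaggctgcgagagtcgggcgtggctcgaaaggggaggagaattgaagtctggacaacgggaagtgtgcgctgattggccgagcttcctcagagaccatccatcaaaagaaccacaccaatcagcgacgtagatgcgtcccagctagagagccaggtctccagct
Ei24 (chr9:36797285-36797584, minus strand): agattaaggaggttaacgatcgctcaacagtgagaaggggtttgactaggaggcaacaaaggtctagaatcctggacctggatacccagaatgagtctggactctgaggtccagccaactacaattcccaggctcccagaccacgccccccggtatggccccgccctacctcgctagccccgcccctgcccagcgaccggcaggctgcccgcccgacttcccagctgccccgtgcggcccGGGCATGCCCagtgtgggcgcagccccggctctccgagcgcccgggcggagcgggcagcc

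Windows were found for 23 of the 31 genes, 30 windows in all. Zmat3, Pmaip1, Tnfrsf10b, Perp, Trp53inp1, Xpc, Ddb2 and Rrm2b had no entry. TGACGTCA lay 166 to 159 bases before the Btg2 start and 62 to 55 before the Plk2 start. It occurred in 588 of all 32851 mouse promoter windows (1.79%), and in 6.67% of the 30 windows. The shorter TGACG, which is part of it, was in 9 of the 30 windows (30.0%) and 20.8% of all. Those were the windows of Mdm2, Btg2, Plk2, Plk3, Bbc3, Polk, Ercc5, Sesn1 and Tigar. Btg2 and Plk2 rose with isoproterenol, Bbc3, Polk and Sesn1 fell, and the main fit did not call the rest. The AP-1 motif TGANTCA was in the Fas window only and in 7.81% of all, and the CArG box, searched by name, was in the Tigar window only and in 1.63% of all. The p53 decamer was in 11 of the 30 windows (36.7%), those of Trp53, Mdm2, Cdkn1a, Ccng1, Gadd45a, Bax, Aen, Ei24, Polk and Sesn1, and in 8.36% of all windows. Aen had overlapping windows that hold the same site, so that site was counted more than once. Of these genes the main fit called only Ccng1 and Ei24 with Cre in the Gaq line. A match describes the letters only and says nothing of binding.

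Before stimulation the 2 cell types held different sets of p53 genes at high level. Per length of exon (CPM per kb, means of the unstimulated libraries), Ccng1, which encodes cyclin G1, led in astrocytes at 262, followed by Phlda3, an inhibitor of Akt, at 165 and Cdkn1a at 126. In Gaq fibroblasts Cdkn1a led at 210, followed by Plk2, a polo-like kinase, at 189 and Btg2, an antiproliferative cofactor of mRNA decay, at 170. The order was the same in Ga13 fibroblasts (224, 185 and 167) and reversed in Gai fibroblasts, where Btg2 was at 240, Plk2 at 222 and Cdkn1a at 187. Ddb2, a damage recognition protein of nucleotide excision repair, was lowest in every line, at 1.1 in the Gas line and 0.552 to 0.61 in the fibroblast lines.

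Comparing the same gene between cell types, 6 genes were lower in all 6 unstimulated astrocyte libraries than in all 18 unstimulated fibroblast libraries, 18 were higher in all, and 7 overlapped. That is 77.4% of the 31 genes without overlap, against 63.1% of 14611 genes tested in all lines, and the cell types also differ in mouse line, medium and virus dose, so no test was made. By direction the shares were 19.4% lower and 58.1% higher in astrocytes, against 16.6% and 46.5% of all genes. The genes lower in astrocytes were Mdm2, Cdkn1a, Gadd45a, Btg2, Plk2 and Plk3. Plk2 ran from 61.9 to 74.1 CPM (median 68) in astrocytes and from 784 to 1070 CPM (median 868) in fibroblasts, and its mean was 13-fold higher in fibroblasts. For Btg2 the ranges were 42.5 to 49.5 CPM (median 45) and 408 to 763 CPM (median 473), an 11.6-fold difference of the means. The 2 genes that isoproterenol raised most were thus those with the widest gap between the resting cell types. Fas, the death receptor, had the widest gap the other way: it ran from 103 to 118 CPM (median 110) in astrocytes and from 7.05 to 17.3 CPM (median 10.1) in fibroblasts, 9.69-fold higher in astrocytes. Dyrk3, a kinase that dissolves stress granules, was 6.67-fold higher in astrocytes and Sesn1, a sestrin that restrains mTORC1, 5.99-fold higher. Trp53 itself overlapped, at 56.5 to 67.2 CPM in astrocytes and 47.5 to 65.6 CPM in fibroblasts. In these bulk libraries fewer cells of a type and less RNA per cell cannot be told apart.

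**Figure D1:**
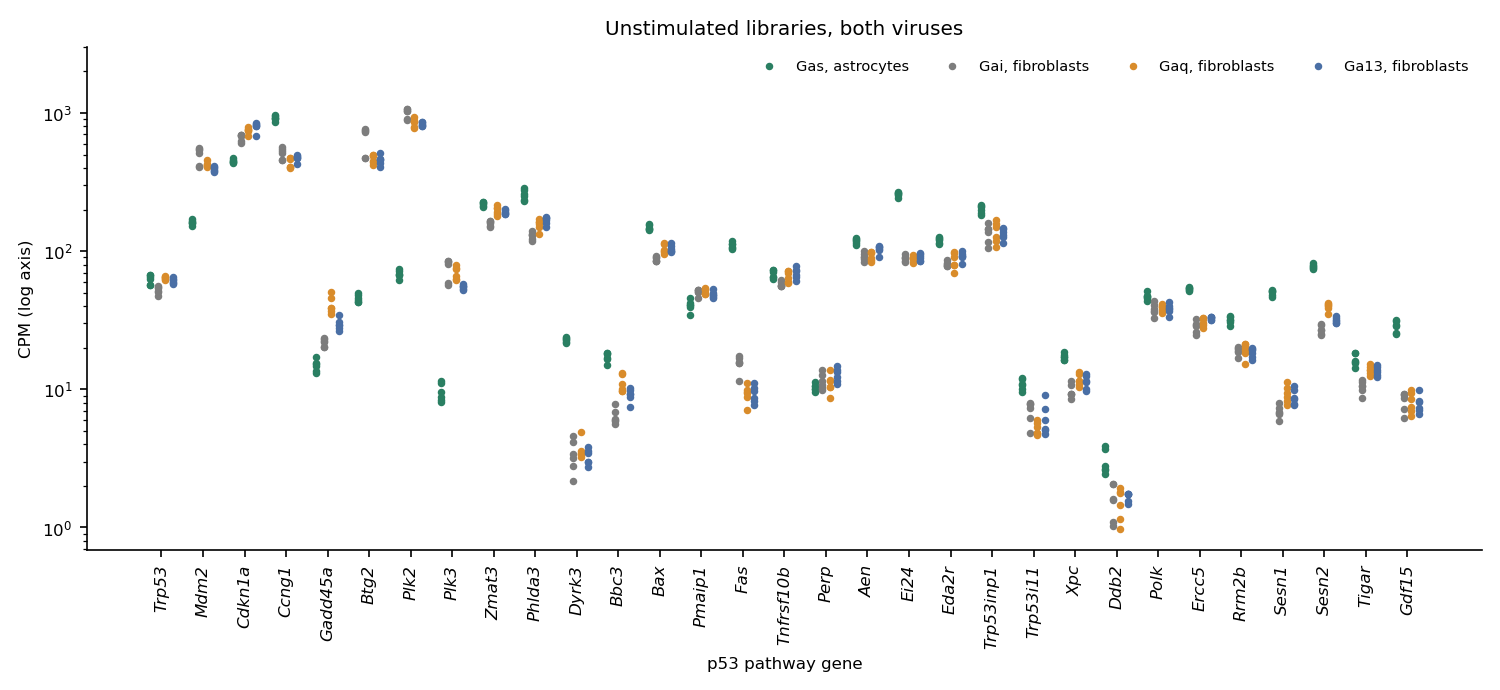
CPM (log axis) of the 31 genes in every unstimulated library, 6 per line, both viruses, coloured by line. Btg2, Plk2 and Plk3 sit far lower in astrocytes than in fibroblasts, and Fas, Dyrk3 and Sesn1 far higher, while Trp53 lies at 47.5 to 67.2 CPM in both cell types.

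Isoproterenol changed 12 of the 31 genes in astrocytes, 6 upward and 6 downward (38.7%), where 23.3% of all 18103 genes tested were called (edgeR adjusted p under 0.05), 11.7% higher and 11.5% lower. The median log2 change over the 31 was -0.05, against -0.00 over all genes. Btg2 and Plk2 rose most, followed by Pmaip1, Gdf15, Sesn2 and Bax, whereas Dyrk3, Bbc3, Phlda3, Trp53inp1, Sesn1 and Polk fell. Under both viruses 6 genes had every stimulated library above every unstimulated one (19.4%, against 6.39% of all genes) and 7 had them all below (22.6%, against 11.1%). Members of 1 functional class moved in opposite directions: of 11 cell death genes 2 rose and 2 fell, of 9 arrest and growth control genes 2 rose and 2 fell, and of 3 metabolic genes 1 rose and 1 fell.

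Btg2 stood at 42.5, 44 and 48.1 CPM with empty virus and 43, 46 and 49.5 CPM with Cre before stimulation, and at 130, 146 and 143 CPM and 154, 138 and 124 CPM after it. All stimulated libraries were above all unstimulated ones under both viruses, and the change was 1.66 ± 0.05 (log2 ± SE; edgeR adjusted p = 5.72e-24). Plk2 was at 74.1, 68.6 and 72.3 CPM with empty virus and 61.9, 67.1 and 67.3 CPM with Cre, against 160, 165 and 160 CPM and 166, 157 and 153 CPM with isoproterenol. Its groups likewise did not overlap (1.27 ± 0.04, edgeR adjusted p = 1.94e-24). By p-value these genes ranked 39 and 34 among all genes tested in astrocytes.

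Pmaip1, which encodes the BH3-only death protein Noxa, was at 46, 41.9 and 40.5 CPM with empty virus and 41, 34.7 and 39.4 CPM with Cre unstimulated. With isoproterenol it was at 68.8, 65.1 and 62.5 CPM and 61.8, 60.8 and 60.3 CPM. The stimulated libraries were all higher (0.69 ± 0.05, edgeR adjusted p = 1.08e-13). Gdf15, a secreted stress cytokine and the only secreted protein among the 31, was at 28.6, 25.2 and 31 CPM and 31.8, 25.7 and 29 CPM unstimulated, and at 36.7, 41.9 and 43.7 CPM and 42.5, 42.4 and 42.3 CPM with isoproterenol. Here too the groups were separate (0.60 ± 0.06, edgeR adjusted p = 4.86e-10). Sesn2, the nutrient-responsive sestrin, rose by 0.31 ± 0.04 (edgeR adjusted p = 2.01e-07) while its relative Sesn1 fell by 0.17 ± 0.05 (edgeR adjusted p = 0.00887). The death effector Bax rose by 0.16 ± 0.04 (edgeR adjusted p = 0.000848); its counts are uncertain because an exon overlaps another gene on the same strand.

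Dyrk3 showed the largest fall. It was at 23.2, 23.9 and 22.9 CPM with empty virus and 22.1, 23.4 and 21.8 CPM with Cre, and at 16.5, 16.2 and 15 CPM and 14.7, 13.7 and 12.8 CPM with isoproterenol. The stimulated libraries were all lower (-0.58 ± 0.07, edgeR adjusted p = 6.29e-09). Bbc3, which encodes the BH3-only protein Puma, fell by 0.44 ± 0.08 (edgeR adjusted p = 1.84e-05) as Pmaip1, of the same protein class, rose. Phlda3 fell by 0.39 ± 0.05 (edgeR adjusted p = 2.82e-07), and Trp53inp1, a p53 cofactor in death and autophagy, by 0.17 ± 0.04 (edgeR adjusted p = 0.00285). Polk, a translesion polymerase, fell by 0.14 ± 0.05 (edgeR adjusted p = 0.0297), a call that was lost without replicate 1 of either empty virus group, replicate 2 of the unstimulated Cre or stimulated empty virus group, or replicate 3 of the stimulated Cre group (adjusted p of up to 0.113).

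**Figure D2:**
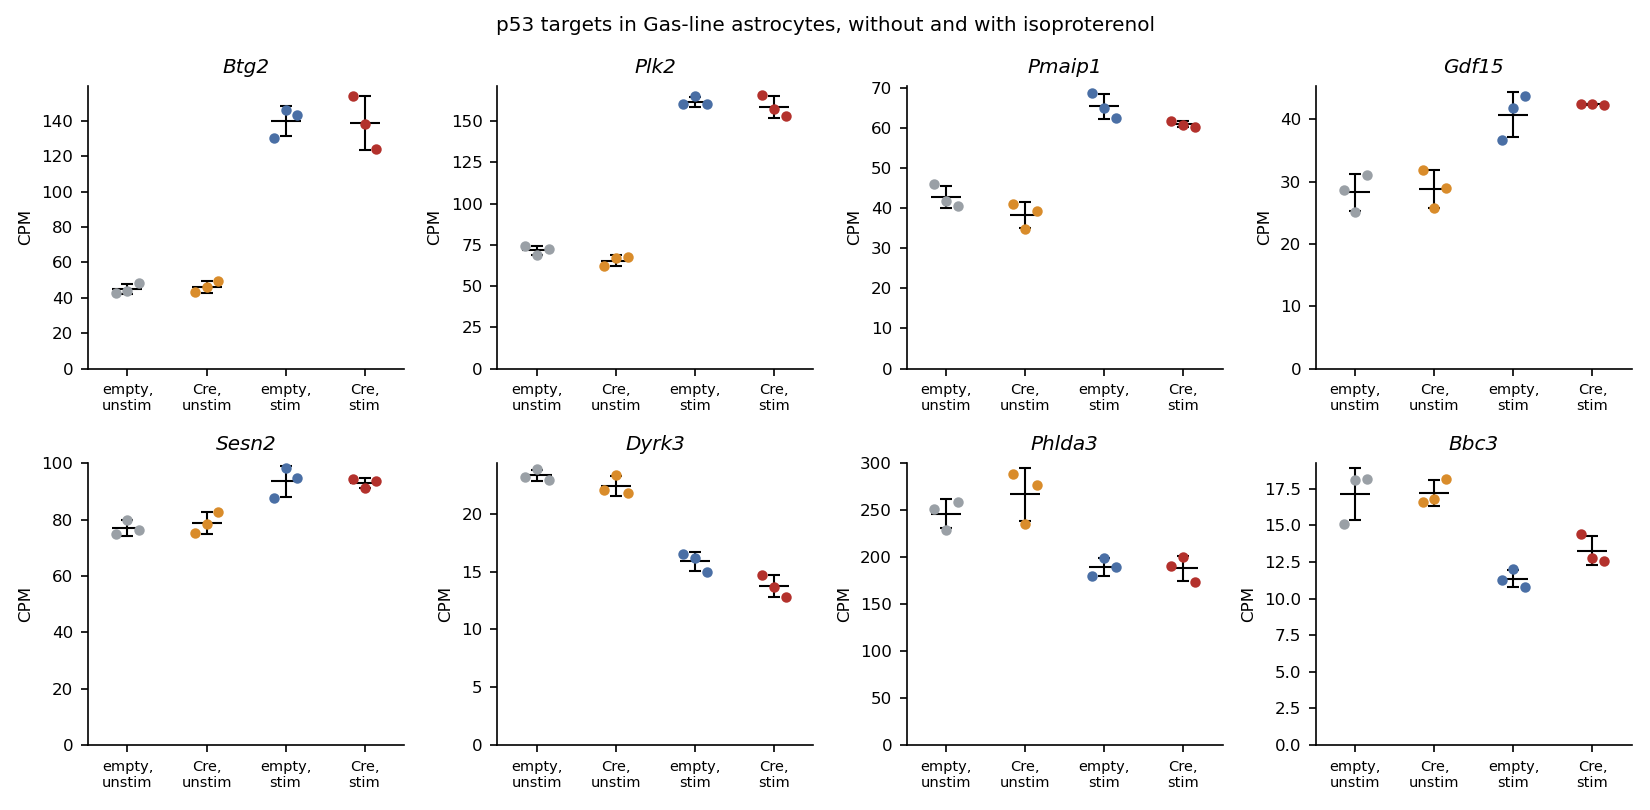
CPM of 8 p53 targets in Gas-line astrocytes (points are libraries, replicates 1 to 3 from left to right; bars are mean ± SD, n = 3) by virus and stimulation. Btg2, Plk2, Pmaip1, Gdf15 and Sesn2 are higher, and Dyrk3, Phlda3 and Bbc3 lower, in every stimulated library.

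The central genes of the pathway were not called in astrocytes in the main fit. Trp53 was at 62.5, 67.2 and 57.2 CPM with empty virus and 56.5, 64.8 and 66.8 CPM with Cre unstimulated, and at 50.3, 56.4 and 52.1 CPM and 64.2, 61.4 and 56 CPM with isoproterenol. Mdm2 was at 159, 164 and 170 CPM and 160, 162 and 151 CPM, and then at 143, 152 and 148 CPM and 151, 145 and 145 CPM. Cdkn1a was at 450, 438 and 444 CPM and 471, 432 and 460 CPM, and then at 466, 472 and 462 CPM and 480, 452 and 437 CPM. Stimulated Mdm2 libraries were all below the unstimulated ones of the same virus, while with empty virus those of Trp53 were all below and those of Cdkn1a all above, and both genes overlapped with Cre. None passed the test in the main fit: the log2 change was -0.10 ± 0.05 for Trp53 (edgeR adjusted p = 0.193), -0.08 ± 0.04 for Mdm2 (0.131) and 0.09 ± 0.03 for Cdkn1a (0.0602). Cdkn1a did pass with DESeq2 (DESeq2 adjusted p = 0.0374) and in edgeR with a replicate block (edgeR adjusted p = 0.04). Exons of Cdkn1a overlap a transcript on the other strand, and the strand setting of the counting is not given in the sources used here.

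Genes of related lists moved in both directions as well. Over all genes tested in astrocytes 23.3% were called, 11.7% higher and 11.5% lower, which are the shares for the list and marker counts below. Of 29 further p53 targets tested in astrocytes 6 rose and 9 fell, among them Gls2, a glutaminase (3.19 ± 0.21), Thbs1, thrombospondin (1.08 ± 0.05), and Notch1, a receptor (-1.02 ± 0.06). Of 24 p53 regulators and damage signalling genes 2 rose, Rchy1, a ubiquitin ligase for p53 (0.43 ± 0.05), and Chek1, a checkpoint kinase (0.61 ± 0.09), and 6 fell, including Nbn of the double-strand break complex (-0.32 ± 0.06). Of 15 cell cycle genes that p53 represses through p21 none rose and 3 fell: Cdc20 (-0.30 ± 0.07), Mki67 (-0.26 ± 0.06) and Cdc25c (-0.42 ± 0.14). Exons of Gls2, Thbs1, Notch1, Rchy1, Cdc20 and Cdc25c overlap other genes, so their counts are uncertain. The list medians were -0.02, -0.08 and -0.09 in that order. With isoproterenol 4 of 9 astrocyte markers and 3 of 9 fibroblast markers were called higher, none lower, and 3 of 10 microglia and macrophage markers higher and 1 lower. The summed astrocyte markers overlapped between groups, at 8860 to 9370 CPM unstimulated and 8900 to 9730 CPM stimulated, and their part in the result was not tested.

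TRAP-6 changed 6, 2 and 0 of the p53 genes in the Ga13, Gaq and Gai fibroblasts. In the Ga13 line 2 rose and 4 fell (19.4%, with 8.38% of all 15835 genes called, 4.69% higher and 3.69% lower). In the Gaq line none rose and 2 fell (6.45%, with 5.61% of 15528 called and 1.83% lower), and 4 were called without replicate 3 of the unstimulated Cre group. The main edgeR fit called 0 in the Gai line (1.12% of 15980 genes called), and DESeq2 also called 0. At an unadjusted p under 0.05 in edgeR there were 2, against 9.66% of all genes. List medians were -0.02, -0.01 and -0.02 in the Ga13, Gaq and Gai lines, each within 0.05 of 0. All stimulated libraries were below all unstimulated ones under both viruses for 4 genes in the Ga13 line (Trp53, Gadd45a, Plk3 and Sesn2; 4.86% of all genes), 1 in the Gaq line (Bbc3; 3.14%) and 1 in the Gai line (Pmaip1; 1.39%), and above them for none. Without replicate 1 the Gai line had 2 calls, Plk3 and Pmaip1, both lower, with 4.39% of all genes called. A replicate block called the same genes, also lower.

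Bbc3 was the gene that agonists lowered in the most lines: it was called lower in the Gas, Gaq and Ga13 lines. Ga13 cells held it at 8.8, 9.21 and 7.5 CPM with empty virus and 9.87, 10.3 and 9.23 CPM with Cre, against 7.66, 6.03 and 5.12 CPM and 6.42, 5.48 and 6.5 CPM with TRAP-6. All 6 stimulated values but 1 lay below every unstimulated one, and the change was -0.52 ± 0.10 (edgeR adjusted p = 0.00044). Gaq cells held it at 9.7, 9.8 and 11 CPM and 12.8, 10.1 and 13.2 CPM, against 8.57, 7.98 and 7.39 CPM and 6.74, 7.68 and 8.41 CPM. There the groups did not overlap under either virus (-0.48 ± 0.09, edgeR adjusted p = 0.000868). The estimate in the Gai line was -0.28 ± 0.12 (edgeR adjusted p = 0.391), and -0.37 ± 0.13 without replicate 1 (0.14).

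Plk3, a polo-like kinase of the stress response, was called lower in 2 fibroblast lines. Gaq cells held it at 74.7, 78.8 and 75.9 CPM with empty virus and 63.3, 61.4 and 66.1 CPM with Cre, and at 64.5, 60.9 and 65.1 CPM and 53, 51.5 and 63.1 CPM with TRAP-6. The values fell with the agonist (-0.19 ± 0.04, edgeR adjusted p = 0.00452), with an overlap only under Cre. Ga13 cells held it at 52.3, 57.7 and 55.6 CPM and 55.8, 54.6 and 53.3 CPM, and then at 47.4, 45.3 and 46.7 CPM and 48.4, 45.1 and 52.1 CPM. No stimulated library reached an unstimulated one of its own virus (-0.17 ± 0.04, edgeR adjusted p = 0.00602). It was not called in the Gai line (-0.17, edgeR adjusted p = 0.797), but without replicate 1 the change was -0.25 ± 0.05 (edgeR adjusted p = 0.000642). Its exon overlaps Tctex1d4 on the other strand, so its counts are uncertain.

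Gadd45a, a stress protein that binds growth arrest and repair factors, fell in the Ga13 line. It was at 26.5, 27.8 and 29 CPM with empty virus and 29.2, 30.5 and 34.6 CPM with Cre, and at 19.9, 21.8 and 22.9 CPM and 23.2, 20.7 and 22.8 CPM with TRAP-6. The groups were separate (-0.40 ± 0.06, edgeR adjusted p = 4.34e-06). Its estimate in the Gaq line was -0.32 ± 0.09 and missed the threshold (edgeR adjusted p = 0.0514; 0.0025 with DESeq2). A transcript on the other strand overlaps it, so its counts are uncertain.

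The genes with the largest rise in astrocytes, Btg2 and Plk2, also rose in the Ga13 line. Btg2 was at 408, 437 and 467 CPM with empty virus and 458, 463 and 512 CPM with Cre, and at 475, 495 and 523 CPM and 475, 481 and 527 CPM with TRAP-6. The groups were separate with empty virus and overlapped with Cre (0.16 ± 0.04, edgeR adjusted p = 0.0094). Plk2 was at 821, 809 and 863 CPM and 803, 829 and 866 CPM, and then at 842, 855 and 887 CPM and 870, 883 and 909 CPM. Its stimulated libraries were higher on average, with overlap under empty virus (0.11 ± 0.02, edgeR adjusted p = 0.00224). The test of whether the TRAP-6 response differed between the fibroblast lines called 0 of the 31 genes in edgeR, where 0.299% of all 16749 genes were called. It also called 0 with DESeq2. At an unadjusted p under 0.05 in edgeR there were 3, and the share of all genes at that threshold was not counted.

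Trp53 was called with TRAP-6 in the Ga13 line. It was at 59.8, 58.4 and 57.6 CPM with empty virus and 61.4, 62.6 and 64.6 CPM with Cre, and at 54.6, 54.4 and 52.3 CPM and 49.1, 53.7 and 56.3 CPM with the agonist. Every stimulated library was below every unstimulated one (-0.15 ± 0.04, edgeR adjusted p = 0.0131). Gaq cells held it at 62.3, 65.6 and 64.8 CPM and 65, 64.2 and 62.6 CPM, and then at 61.1, 65.5 and 72.1 CPM and 59.4, 60.8 and 63.5 CPM. Gai cells held it at 55.1, 47.5 and 56.2 CPM and 54, 50.2 and 51.3 CPM, and then at 50, 50.3 and 54.2 CPM and 46.5, 50.5 and 51.6 CPM. The groups overlapped in both of these lines.

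Mdm2 and Cdkn1a were not called with TRAP-6 in any fibroblast line. Mdm2 in the Ga13 line was at 384, 398 and 376 CPM with empty virus and 403, 412 and 381 CPM with Cre, and at 384, 382 and 364 CPM and 417, 431 and 388 CPM with TRAP-6. Gaq libraries had 458, 425 and 418 CPM and 419, 415 and 408 CPM, and then at 454, 439 and 413 CPM and 421, 426 and 447 CPM. Stimulated and unstimulated Mdm2 groups overlapped, except with Cre in the Gaq line, where all stimulated libraries were higher. Gai libraries had 410, 557 and 551 CPM and 407, 515 and 543 CPM, and then at 397, 519 and 523 CPM and 415, 544 and 530 CPM, with replicate 1 lowest in each group. Cdkn1a in the Ga13 line was at 800, 815 and 678 CPM and 847, 833 and 801 CPM, and then at 791, 791 and 702 CPM and 841, 760 and 763 CPM. Gaq libraries had 750, 751 and 678 CPM and 797, 745 and 763 CPM, and then at 727, 707 and 659 CPM and 748, 743 and 740 CPM. Stimulated and unstimulated groups overlapped here too. Cdkn1a in the Gai line was at 610, 686 and 691 CPM and 627, 696 and 687 CPM, and then at 627, 683 and 671 CPM and 620, 675 and 693 CPM, again lowest in replicate 1.

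Among other pathway genes TRAP-6 raised Thbs1 in the Gaq line (0.17 ± 0.02) and in the Ga13 line (0.13 ± 0.02). In the Gaq line 4 of 29 further p53 targets rose and 1 fell, the cytokine Lif (-0.35 ± 0.04), with 5.61% of all genes called and 1.83% lower. In the Ga13 line 3 rose and 4 fell, including Ddit4, an mTORC1 inhibitor (-0.42 ± 0.06). There 8.38% of all genes were called, 4.69% higher and 3.69% lower. Of 22 regulators none was called in the Gaq line and 1 in the Ga13 line, the acetyltransferase gene Ep300 (-0.16 ± 0.04). No gene of the p21-repressed list was called in a fibroblast line with TRAP-6. edgeR called none of the 3 lists' genes in the Gai line, with 1.12% of all genes called.

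**Figure D3:**
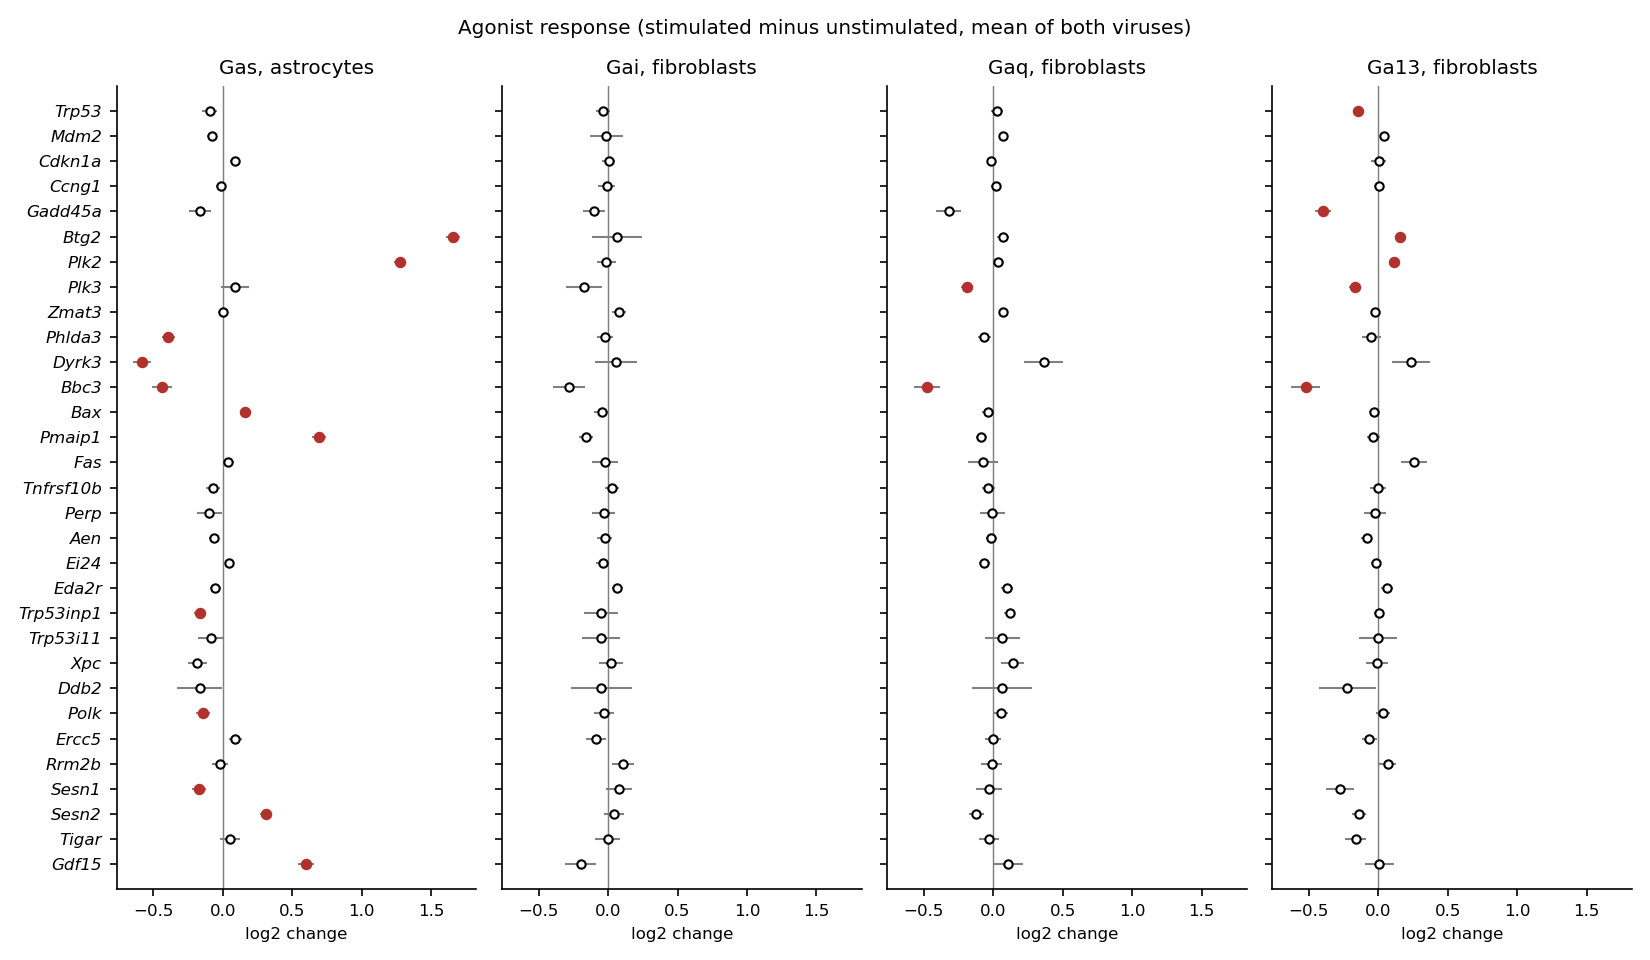
Log2 change with agonist ± SE of the 31 genes in each line (mean of both viruses, 12 libraries per line); filled red points have an edgeR adjusted p under 0.05. Btg2 (1.66) and Plk2 (1.27) in astrocytes lie apart from all others, and Bbc3 lies left of 0 in all 4 panels.

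Most calls between Cre and empty virus were in the Gaq line. There 10 of the 31 were higher and 1 lower than with empty virus, averaged over both stimulation states (35.5%, with 6.5% of all 15528 genes called, 3.68% higher and 2.83% lower). The list median was 0.09, against -0.00 over all genes. Of 11 cell death genes 7 rose: Trp53inp1, Eda2r, Fas, Perp, Pmaip1, Tnfrsf10b and Ei24. Of 9 arrest and growth control genes Ccng1, Zmat3 and Phlda3 rose and Plk3 fell. None of the 5 DNA repair and nucleotide supply genes, the 3 metabolic genes, Gdf15, Trp53 or Mdm2 was called.

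Trp53inp1 changed most by p-value. In unstimulated Gaq cells it was at 119, 107 and 126 CPM with empty virus and 157, 150 and 167 CPM with Cre, and with TRAP-6 at 131, 125 and 132 CPM and 159, 160 and 163 CPM. All Cre libraries were above all empty virus libraries in both states (0.38 ± 0.04, edgeR adjusted p = 6.34e-09, rank 31 among all genes). Eda2r, a TNF receptor family member, was at 79, 69.6 and 79.6 CPM and 98.9, 91.4 and 97.5 CPM unstimulated, and at 78.2, 81.8 and 78.6 CPM and 107, 100 and 92.1 CPM with TRAP-6. Its viruses were likewise separate (0.34 ± 0.04, edgeR adjusted p = 9.94e-07). Ccng1 was at 406, 408 and 401 CPM and 462, 474 and 473 CPM unstimulated, and at 406, 426 and 386 CPM and 472, 458 and 431 CPM with TRAP-6, where Cre values were again all higher (0.19 ± 0.03, edgeR adjusted p = 6.7e-05).

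The other genes that rose with Cre in the Gaq line did so by 0.12 to 0.38 on the log2 scale. Pmaip1 rose by 0.23 ± 0.04 (edgeR adjusted p = 0.000342), Tnfrsf10b, a TRAIL death receptor, by 0.19 ± 0.05 (0.00474) and Ei24, a protein of the endoplasmic reticulum, by 0.17 ± 0.04 (0.00663). Phlda3 rose by 0.18 ± 0.04 (edgeR adjusted p = 0.0104) and Zmat3, an RNA-binding zinc finger protein, by 0.12 ± 0.03 (0.0102). Perp, a desmosomal membrane protein, rose by 0.35 ± 0.09 (edgeR adjusted p = 0.0111) and Fas by 0.38 ± 0.11 (0.0279), at 5.32 to 13.9 CPM. The call for Fas was lost without replicate 1 of the unstimulated Cre or of either stimulated group, or replicate 2 of the unstimulated empty virus or stimulated Cre group (adjusted p of up to 0.129), and that for Perp without replicate 2 of the stimulated empty virus group (0.053). Plk3 fell by 0.22 ± 0.04 (edgeR adjusted p = 0.000905). Between the viruses 9 of the 31 genes (29%) had all Cre libraries above all empty virus libraries in both stimulation states, Ddb2 among them, against 2.47% of all genes, and none had them all below, against 2.37%.

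The cell cycle inhibitor and the p53 feedback gene did not pass the test in the main fit of the Gaq line. Cdkn1a was 0.09 ± 0.03 higher (edgeR adjusted p = 0.0885), Mdm2 differed by -0.03 ± 0.03 (0.68) and Trp53 by -0.05 ± 0.04 (0.598). Cdkn1a was called there in edgeR with a replicate block (edgeR adjusted p = 0.0058) and without a filter on low counts (0.0327). Bax and Bbc3 were at 0.03 and 0.09, both uncalled. Ddb2 had the largest estimate, 0.50 ± 0.21, at 0.974 to 1.92 CPM, and was not called (edgeR adjusted p = 0.202).

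Within unstimulated Gaq cells alone 5 genes rose and 1 fell with Cre (19.4%, with 2.65% of all genes called, 1.28% higher and 1.37% lower). These were Trp53inp1 (0.43 ± 0.05), Eda2r (0.34 ± 0.06), Ccng1 (0.22 ± 0.04), Zmat3 (0.17 ± 0.04) and Tnfrsf10b (0.23 ± 0.06) upward and Plk3 (-0.26 ± 0.06) downward. With TRAP-6 present 5 rose and none fell (16.1%, with 3.41% of all genes called and 1.99% higher): Trp53inp1 (0.32 ± 0.05), Eda2r (0.34 ± 0.06), Pmaip1 (0.35 ± 0.06), Ei24 (0.25 ± 0.06) and Ccng1 (0.17 ± 0.04). The difference between the states, which is the effect of Cre on the TRAP-6 response, was called for 0 of the 31 genes in edgeR and in DESeq2 (0.161% of all genes called in edgeR). At an unadjusted p under 0.05 in edgeR there was 1, against 6.84% of all genes. Without replicate 1 or replicate 2 of the unstimulated Cre group the first count was 3. The second was 3 without replicate 1 or 2 of the stimulated Cre group or replicate 3 of the stimulated empty virus group, and 8 without replicate 3 of the stimulated Cre group. Single libraries decided 5 of these 11 calls. Tnfrsf10b was lost unstimulated without any of 6 libraries (both groups' replicates 1 and 3, replicate 2 of the Cre group, and replicate 1 of the stimulated Cre group; adjusted p of up to 0.139). Zmat3 was lost without any unstimulated Cre library or replicate 2 or 3 of the unstimulated empty virus group (up to 0.16), and Plk3 without replicate 2 of either unstimulated group or replicate 1 of the Cre group (up to 0.0866). With TRAP-6, Ccng1 was lost without replicate 1 or 3 of the empty virus group or replicate 1 or 2 of the Cre group (up to 0.225), and Ei24 without replicate 3 of the empty virus group or replicate 1 or 2 of the Cre group (up to 0.0971).

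Some cell type markers also differed with Cre in the Gaq line, where 3.68% of all genes were called higher and 2.83% lower. Of 9 fibroblast markers 8 were higher with Cre, Col3a1 most (0.53), and their sum ran from 51200 to 53100 CPM with empty virus and from 57300 to 63000 CPM with Cre. Of 5 mesothelial markers 3 were higher (Upk3b by 0.36, Lrrn4 by 0.50 and Upk1b by 0.35), with sums of 561 to 709 CPM and 715 to 839 CPM. The mesothelial sums were also separate in unstimulated Gai cells, at 622 to 740 CPM with empty virus and 751 to 811 CPM with Cre. They overlapped between the viruses in stimulated Gai cells and in both states of the Ga13 line. Of 6 smooth muscle and pericyte markers 2 were higher. The sum of all 6 was nevertheless lower on average with Cre. Its group means were 317 and 320 CPM with empty virus and 275 and 280 CPM with Cre. The ranges overlapped, at 289 to 365 CPM with empty virus and 261 to 310 CPM with Cre. None of 8 tested microglia and macrophage markers was called. All 5 mesothelial and all 9 fibroblast markers were above 1 CPM in every Gaq group. Their part in the result was not tested. The biosensor was at 85.8 ± 4.42 and 88.4 ± 13.2 CPM (SD, n = 3) in the Gaq Cre groups, below the 118 to 133 CPM group means of the Gai and Ga13 Cre groups.

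Of the further pathway genes in the Gaq line, 5 of 29 p53 targets rose with Cre and 3 fell. Over all genes 6.5% were called, 3.68% higher and 2.83% lower. Lif (-0.43 ± 0.04) and Thbs1 (-0.25 ± 0.02) fell, and Ephx1, an epoxide hydrolase, rose (0.26 ± 0.03). Of 22 regulators Mdm4, which inhibits p53, rose (0.21 ± 0.04) and Hipk2, a kinase that activates p53, fell (-0.26 ± 0.04). edgeR called none of the 15 p21-repressed cell cycle genes, and their median was 0.05. At an unadjusted p under 0.05 there were 0, against 16.5% of all genes.

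**Figure D4:**
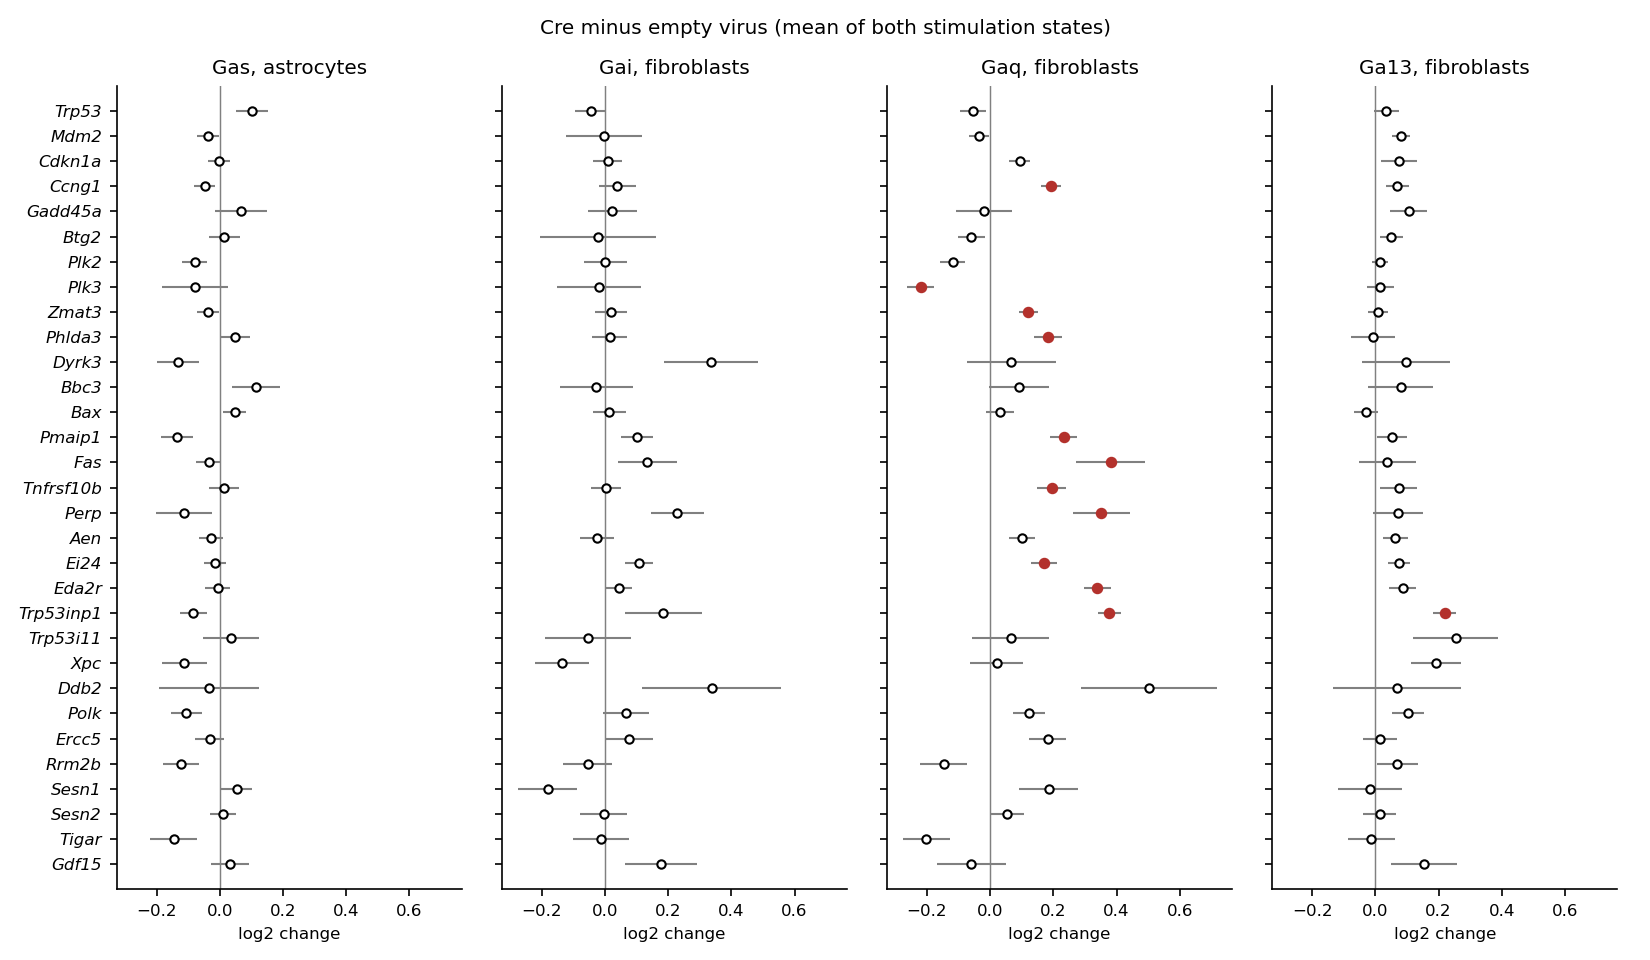
Log2 difference, Cre minus empty virus, ± SE of the 31 genes in each line (mean of both stimulation states, 12 libraries per line); filled red points have an edgeR adjusted p under 0.05. The Gaq panel holds 10 filled points right of 0 and 1 left of it, the Ga13 panel 1, and the Gas and Gai panels none.

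In the Ga13 line Cre changed 1 of the 31 genes (3.23%, with 0.0568% of all 15835 genes called and 0.0442% higher), and it was again Trp53inp1. It was at 131, 126 and 114 CPM with empty virus and 148, 138 and 144 CPM with Cre unstimulated, and at 120, 127 and 111 CPM and 139, 143 and 141 CPM with TRAP-6. All Cre libraries were above all empty virus libraries in both states (0.22 ± 0.04, edgeR adjusted p = 0.00374), and by p-value the gene ranked 2 among all genes tested. Xpc, a damage sensor of nucleotide excision repair, also had all Cre values higher in both states (2 of the 31 genes, with 0.417% of all genes) but was not called (0.19 ± 0.08, edgeR adjusted p = 0.931). Estimates were above 0 for 27 of the 31 genes, against 50.4% of all genes, with a list median of 0.07. Within a single state the main edgeR fit called none of the 31 (0.0126% of all genes called unstimulated and 0.0568% with TRAP-6). There 5 unstimulated and 3 with TRAP-6 were at an unadjusted p under 0.05, against 4.94% and 7.94% of all genes. DESeq2 called Trp53inp1 with TRAP-6 (0.24 ± 0.06, DESeq2 adjusted p = 0.0267). edgeR called 1 of the 31 there without replicate 2 of the stimulated or replicate 3 of the unstimulated empty virus group.

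In the Gai line the main edgeR fit and DESeq2 called 0 of the 31 with Cre (0.0125% of all genes called in edgeR). At an unadjusted p under 0.05 in edgeR there were 3, against 2.87% of all genes. Trp53inp1 was at 105, 144 and 138 CPM with empty virus and 117, 145 and 161 CPM with Cre unstimulated, and at 96.4, 133 and 126 CPM and 118, 154 and 149 CPM with TRAP-6. In each group the first of these values, replicate 1, was the lowest, and the viruses overlapped (0.19 ± 0.12, edgeR adjusted p = 1). Without replicate 1 the estimate was 0.17 ± 0.04 and still not called (edgeR adjusted p = 0.0783). With a replicate block it was called (0.19 ± 0.03, edgeR adjusted p = 0.00514). Within a single state the main edgeR fit and DESeq2 called none in this line (0% of all genes called in edgeR). In each state 1 of the 31 was at an unadjusted p under 0.05, against 2.55% of all genes unstimulated and 2.18% with TRAP-6. The Cre difference of Eda2r was 0.04 ± 0.04 with all libraries.

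Astrocytes showed no called Cre effect on these genes either, with 0 of 31 in edgeR and DESeq2 (0.0608% of all genes called in edgeR). At an unadjusted p under 0.05 in edgeR there were 5, against 6.9% of all genes. Within a single state 0 were called as well (0.00552% of all genes called unstimulated and 0.0166% with isoproterenol). There 2 unstimulated and 4 with isoproterenol were at an unadjusted p under 0.05, against 6.45% and 3.71% of all genes. The smallest adjusted p over both states, 0.595, belonged to Pmaip1, at -0.14 ± 0.05. Trp53inp1 was at 209, 215 and 198 CPM with empty virus and 188, 213 and 183 CPM with Cre unstimulated, and at 184, 186 and 161 CPM and 167, 177 and 162 CPM with isoproterenol. The viruses overlapped (-0.08 ± 0.04). Estimates averaged over both states were above 0 for 11 of the 31 genes, against 50.3% of all genes. Virus dilution, cell type and biosensor level all differed from the fibroblast lines, with Cre group means of 20.2 and 25.3 CPM for the biosensor here.

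A joint fit of the 36 fibroblast libraries tested whether the Cre effect differed between the Gai, Gaq and Ga13 lines. It called 1 of the 31 genes (0.675% of all 16749 genes called), Eda2r. The Cre effect on Eda2r was 0.30 larger in the Gaq than in the Gai line and 0.25 smaller in the Ga13 than in the Gaq line. Its edgeR adjusted p was 0.0123. Adjusted p-values of the joint fit are for the fibroblast lines together, and no pair of lines was tested alone. In the Ga13 line Eda2r was at 92, 91.6 and 80.1 CPM with empty virus and 100, 90.6 and 95.9 CPM with Cre unstimulated, and at 96, 91.8 and 84.1 CPM and 99.9, 96.9 and 89 CPM with TRAP-6. Gai cells held it at 77.8, 81.5 and 78.7 CPM and 77.7, 80.3 and 85.7 CPM, and then at 80.6, 83.8 and 79.8 CPM and 85.7, 83.2 and 85.6 CPM. The viruses overlapped in both of these lines and did not in the Gaq line. For Trp53inp1 the difference between lines was not called (Gaq minus Gai 0.20, edgeR adjusted p = 0.875), nor for Ccng1 (0.16, edgeR adjusted p = 0.634) in this fit, without a replicate block. Without replicate 1 of the stimulated Cre group or replicate 2 of the unstimulated empty virus group of the Gaq line the call for Eda2r was lost (adjusted p of 0.058 and 0.0526). Without the 4 Gai replicate 1 libraries Eda2r remained called (0.29, edgeR adjusted p = 0.00615) and Plk3 was called too (0.0391).

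**Figure D5:**
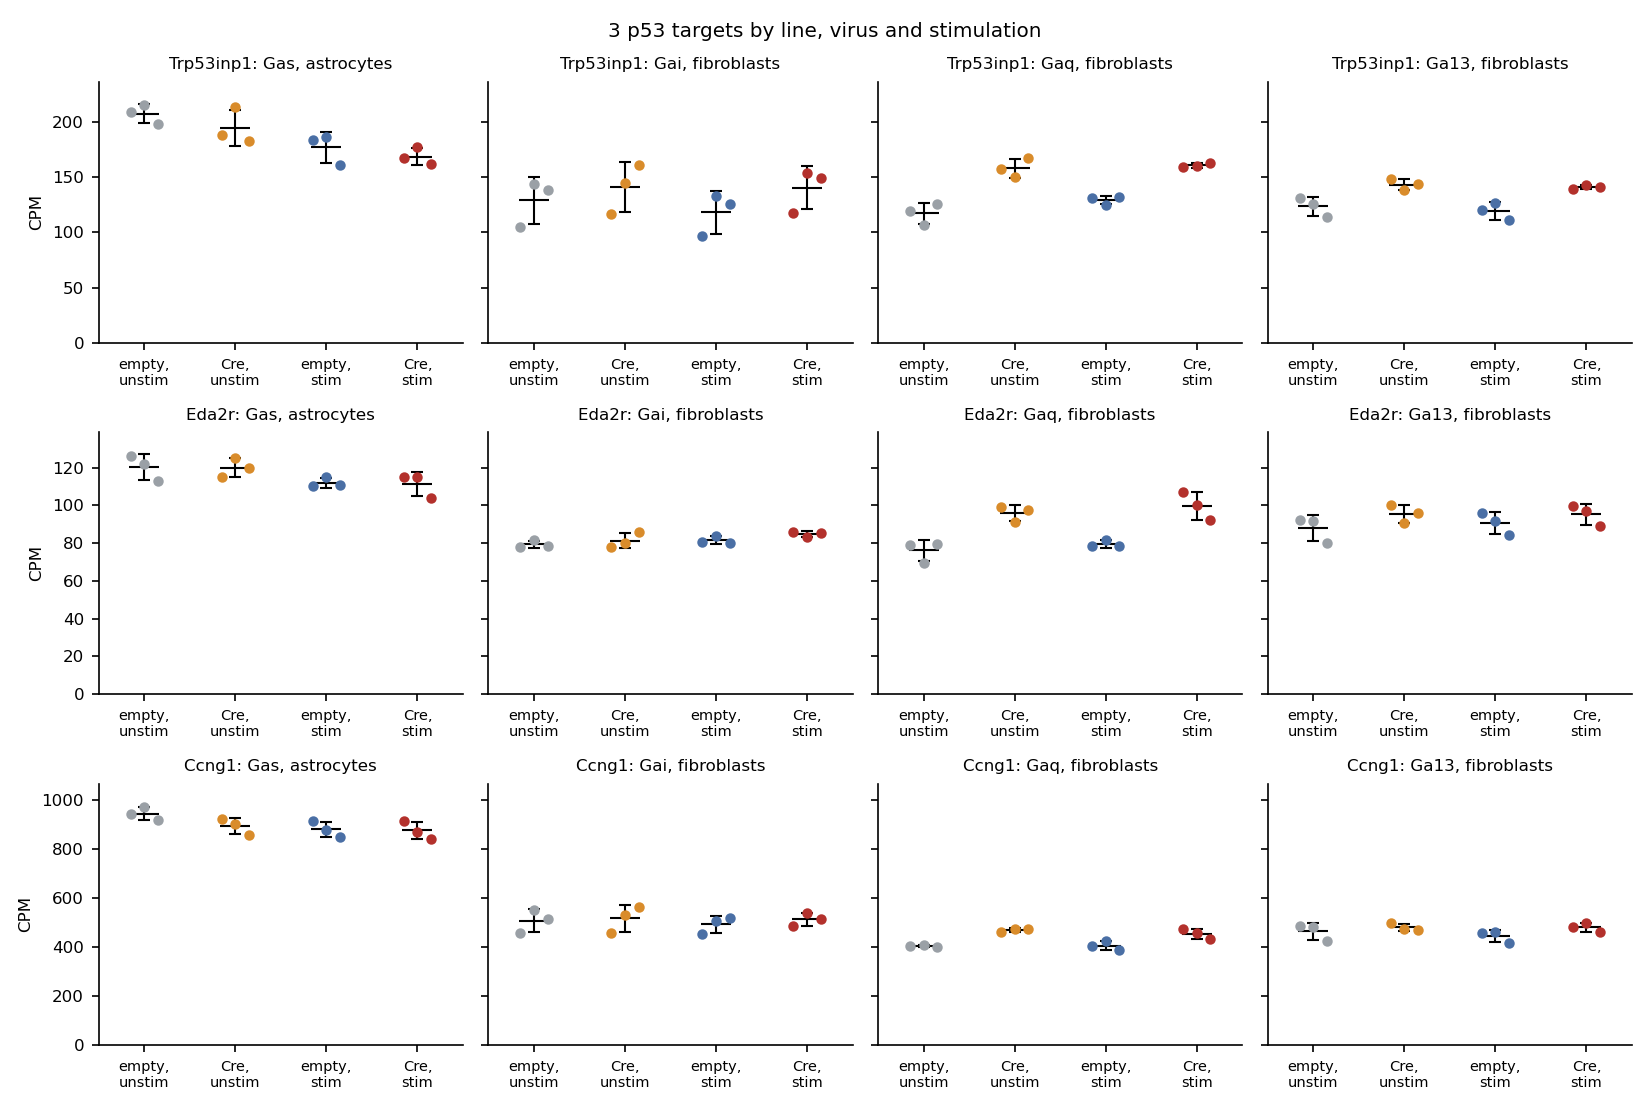
CPM of Trp53inp1, Eda2r and Ccng1 in each line (points are libraries, replicates 1 to 3 from left to right; bars are mean ± SD, n = 3) by virus and stimulation. In the Gaq column all Cre points lie above the empty virus points of the same stimulation state for each gene, and in the Ga13 column this holds for Trp53inp1.

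No difference in the agonist response between Cre and empty virus was called for these genes. The interaction of virus and agonist was called for none in any line in edgeR or DESeq2. Astrocytes had 1 of the 31 at an unadjusted p under 0.05 in edgeR, against 3.49% of all genes. Gai cells had 1, against 2.16%, and Gaq cells 1, against 6.84%. For Ga13 cells the count was 2, against 7.67%. Of all genes 0% were called in the Gas and Gai lines and 0.0821% in the Ga13 line. Pmaip1 had the smallest adjusted p in the Gaq line (0.527) and in the Ga13 line (0.602).

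The main edgeR fit called 9 of the 31 genes in no comparison: Mdm2, Cdkn1a, Xpc, Ddb2, Aen, Trp53i11, Rrm2b, Ercc5 and Tigar. Other edgeR settings called some of them. With a replicate block Cdkn1a was called with isoproterenol (edgeR adjusted p = 0.04) and with Cre in the Gaq line (0.0058). The block also called Ercc5 with Cre in the Gaq line (0.0242) and Mdm2 with Cre under TRAP-6 in the Ga13 line (0.0218). A filter at mean CPM 1 called Xpc with isoproterenol (0.046). In the main fit Ercc5, an excision repair nuclease, came closest, at 0.18 ± 0.06 with Cre in the Gaq line (edgeR adjusted p = 0.0534). Xpc followed at -0.18 ± 0.07 with isoproterenol (0.0546). Tigar, a regulator of glycolysis, was at -0.20 ± 0.07 with Cre in the Gaq line (edgeR adjusted p = 0.116). Aen, a nuclease of apoptosis, had group means of 85.9 to 120 CPM over all 16 groups and estimates of -0.08 to 0.10. For Rrm2b, a ribonucleotide reductase subunit, group means were 17.3 to 32.6 CPM and estimates -0.15 to 0.11, and for Trp53i11 4.98 to 11.5 CPM and -0.09 to 0.25. The repair and nucleotide supply genes among the 9 were thus uncalled in every line in the main fit, while Polk of the same class was called in astrocytes. Exons of Ddb2, Rrm2b, Tigar and Ei24 overlap transcripts on the other strand, so their counts are uncertain.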

How the data were processed

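The members and lists of genes, and the comparisons, were chosen with earlier results of these data known. RNA was poly-A selected, and the authors deposited raw read counts per gene, made with fastp, Subread and featureCounts on GRCm39, per the submitters' processing notes; tool versions, the annotation and the strand setting are not given in the sources used here. Each line was fitted separately from the deposited counts in edgeR 4.0.16 (R 4.3.3): TMM scaling, genes kept by filterByExpr, and the robust quasi-likelihood test over 4 groups of 3 libraries, with Benjamini-Hochberg adjustment over all genes of the line and a threshold of 0.05. The agonist response was averaged over both viruses and the Cre difference over both stimulation states. The 3 fibroblast lines were fitted together to test differences between them. CPM values use the total counts of a library and log2 changes come from the fit.

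Named genes were p53, Mdm2 and Cdkn1a everywhere, and the called genes with the smallest p-values, up to 5 for the agonist and up to 3 for Cre in each line; other genes were named after their values were seen. Depth was 15.6 M to 42.6 M counts per library (medians 20.3 M, 18.4 M, 18.2 M and 21.7 M for Gas, Gai, Gaq and Ga13), and the biological coefficient of variation was 0.0686, 0.0911, 0.0649 and 0.0678. No 2 libraries of a group agreed within sampling noise (lowest chi-square per degree of freedom 2.58). The fit was tested on simulated data. DESeq2 1.42.0, other scaling, other filters, a replicate block and leaving out libraries were the alternatives; leaving out the Gai replicate 1 libraries was chosen after seeing the data.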

Additional observations from a re-analysis of the deposited data

Results flagged for a closer look

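The Cre effect on Eda2r, a member of the TNF receptor family, differed between the fibroblast lines in the test of the difference itself. That test took the fibroblast lines together (edgeR adjusted p = 0.0123 over 16749 genes). The log2 difference between Cre and empty virus was 0.302 larger in the Gaq than in the Gai line, a pair not tested alone. The call was lost without replicate 1 of the stimulated Cre group of the Gaq line (edgeR adjusted p = 0.058) or replicate 2 of its unstimulated empty virus group (0.0526). Without the Gai replicate 1 libraries the difference was 0.29.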

How the results depend on the processing

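The 44 gene results called in the main fit were rechecked in 773 refits, of which 738 kept the call, 35 missed the threshold and 0 reversed. Genes called only under another setting are outside this tally. Plk2, for example, was at -0.12 with Cre in the Gaq line without a filter on low counts (edgeR adjusted p = 0.00244). The count of p53 genes changed by Cre in the Gaq line was 10 to 14 over all alternatives against 11, and that of isoproterenol in astrocytes 11 to 14 against 12. Replicate numbers are shared between groups, and the main fit did not treat same-numbered libraries as paired. In the Gai line all same-numbered pairs correlated above 0 (lowest 0.0309, median 0.0984, against -0.149 for other pairs). Same-numbered medians were 0.0314, 0.0485 and 0.0468 in the Gas, Gaq and Ga13 lines, against -0.0158, -0.0211 and -0.0192, with some pairs below 0. Group means were subtracted before correlating, so other pairs tend to lie below 0 wherever same-numbered pairs lie above it. The values of other pairs are thus no independent baseline. Libraries correlated best with their own number in 11, 5, 9 and 11 of 12 cases for Gas, Gai, Gaq and Ga13. This is a hint of pairing from the data and not from the design, so counts that change with a replicate block are given here. With a replicate block the Gai line had 2 calls for TRAP-6 (Plk3 and Pmaip1), 1 for Cre on average and 1 for Cre with agonist (Trp53inp1, at 0.19 on average, edgeR adjusted p = 0.00514). In the Gaq line the block gave 4 for TRAP-6 and 8 for Cre with agonist. In the Ga13 line it gave 1 for unstimulated Cre and 2 for Cre with agonist, and the test of a Cre effect that differs between fibroblast lines gave 5 (Ccng1 with an edgeR adjusted p of 0.0092, Trp53inp1 with 0.00705, Plk2 and Plk3 beside Eda2r), so for Ccng1 and Trp53inp1 the call of a difference between lines depends on the block. The block changed no other count by over 1.5 times. Without a filter on low counts TRAP-6 in the Gaq line had 4 calls, unstimulated Cre in the Ga13 line 1 and Cre with agonist there 1; DESeq2 also gave 1 for the last. Leaving out the Gai replicate 1 libraries, chosen after seeing the data, gave 2 calls for TRAP-6 in the Gai line and 2 for the difference of the Cre effect. Leaving out single libraries gave 2 to 4 for TRAP-6 in the Gaq line, 3 to 6 for unstimulated Cre and 3 to 8 for Cre with agonist there, 0 to 1 for Cre with agonist in the Ga13 line (1 without replicate 2 of the stimulated or replicate 3 of the unstimulated empty virus group) and 0 to 1 for the difference between lines. The cause was not tested. For the counts without a filter, with DESeq2 or with libraries left out, shares of all genes are mostly not given here. Those counts therefore cannot be read as particular to the p53 genes. Over all genes the block raised the calls for TRAP-6 in the Gai line from 179 to 797, and for Cre in the Gaq line from 411 to 752 unstimulated and from 529 to 944 with agonist. It raised them in the Ga13 line from 9 to 41 on average and from 9 to 112 with agonist, and for differences between lines from 50 to 268 (TRAP-6) and from 113 to 620 (Cre). Ddb2, at 0.974 to 3.87 CPM over all libraries, had an SE of 0.214 for Cre in the Gaq line, against 0.0369 for Trp53inp1; the share of counting error in it was not tested.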
